A study of Mus musculus with 12 samples.

Results

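A group of 36 genes that fold, check and dispose of proteins in the endoplasmic reticulum (ER), or that signal when this work falls behind, was followed in mouse lung cancer allografts with and without knockdown of *Filip1l*. The members were taken from a list of ER folding, degradation and stress genes, and all 36 of 36 listed genes were among the 15687 genes of the expression table. The tumors grew from mTC11 (mTc11 in the labels), a line of mouse lung cancer cells, injected under the skin of 8-week-old male C57BL6/J mice in growth factor-reduced Matrigel and collected at day 24. The CTL group was 6 tumors from cells labelled shControl, and the *Filip1l*-knockdown group was 6 tumors from cells labelled Filip1l KD. Both kinds of cells had been transduced with lentivirus and selected with puromycin, and the knockdown cells were mixed clones. Lentiviruses with more than 1 *Filip1l* hairpin sequence were made, and which one the sequenced tumors carried is not given in the sources used here. The labels name 1 kind of cells per group, so the p-values below measure the spread between tumors and not between separate knockdowns. Any other lasting difference between the CTL and the knockdown cells cannot be told apart from the knockdown. Each tumor was one bulk RNA library of poly(A)-selected RNA, and cancer cells and host cells of the tumor are both mouse, so a change in the number of cells of a type and a change in RNA per cell cannot be told apart. The question was how gene expression differs between tumors with and without the knockdown, here for the ER folding machinery.

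Proteins destined for secretion or the cell surface enter the ER through the Sec61 channel and are folded there by BiP (*Hspa5*), GRP94 (*Hsp90b1*), the lectin chaperones and the protein disulfide isomerases, while proteins that fail to fold are returned to the cytosol and degraded. When unfolded proteins accumulate, the sensors IRE1 (*Ern1*), PERK (*Eif2ak3*) and ATF6 (*Atf6*) start the unfolded protein response (UPR). IRE1 splices the mRNA of *Xbp1*, ATF6 is cut to release a transcription factor, and PERK slows translation and favours *Atf4*, which in turn raises *Ddit3* (CHOP), *Trib3* and *Ppp1r15a*. These are signals of proteins and splice forms, and gene-level RNA counts see only the transcripts of the sensors and of their targets.

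The values are normalized counts, read counts per gene divided by a scaling factor for each tumor. They compare the same gene between tumors and are not corrected for gene length. Differences are log2 fold changes of knockdown over CTL on the log2(normalized count + 1) scale from limma, fitted on all 15687 genes, and a gene was called at an adjusted p under 0.05 (Benjamini-Hochberg over all genes). *Filip1l* itself (ENSMUSG00000043336, chr16:57353093-57573126, plus strand, GRCm38) was measured at 1983 to 2542 in CTL tumors with a median of 2354, and 1670.1 to 2184 in knockdown tumors with a median of 1935 (log2 fold change -0.26, SE 0.0732, adjusted p = 0.00998). The groups overlapped, since knockdown tumor 1, at 2184, lay inside the CTL range. Between 17834745 and 32419578 reads per tumor fell on the 15687 genes of the expression table together. All 36 members passed the filter at a mean of 5 normalized counts. All members except *Derl3* had at least 221 reads in every tumor.

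Of the 36 members 18 rose and 2 fell in knockdown tumors, and 16 were not called. This is 50% of members higher, where 21.1% of all genes tested were called higher, and 5.56% lower, where 20.7% of all genes were called lower. The median log2 fold change of the members was 0.23, against 0.01 over all genes, and 32 of 36 had a positive value. The changes were small. Apart from *Ero1l*, members called higher had log2 fold changes from 0.21 to 0.68, and *Ero1l* was the 1 member also past an absolute log2 fold change of 1, which 10.2% of all genes were. In 8 members all 6 knockdown tumors lay above all 6 CTL tumors, and in 1 member, *Txndc5*, all lay below. Over all genes such separation was found upward for 10.6% and downward for 10.9%. The 36 members together took 1.00% ± 0.0300 of all normalized counts in CTL tumors and 1.22% ± 0.0905 in knockdown tumors (SD, n = 6 each). Without *Ero1l* these shares were 0.989% ± 0.0314 and 1.15% ± 0.0724, and the lowest knockdown tumor, at 1.06%, was above the highest CTL tumor, at 1.02%.

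**Figure D1:**
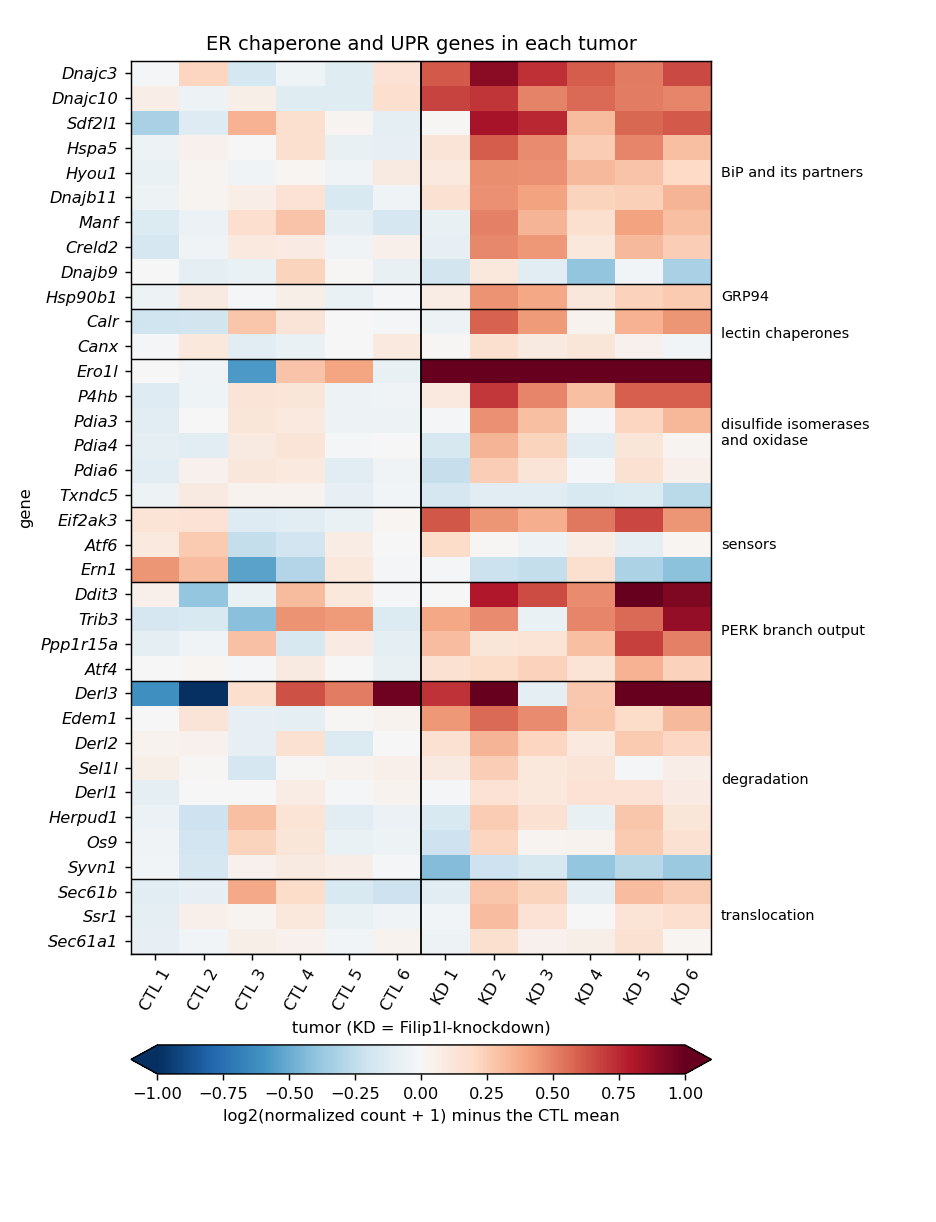
Heat map of the 36 genes (rows, by role) in the 12 tumors (columns), coloured by log2(normalized count + 1) minus the mean of the CTL tumors, with colours ending at -1 and 1. Most rows of the BiP group turn red in knockdown tumors 2 to 6 and are paler in knockdown tumor 1, and *Ero1l* is beyond the end of the scale in all 6.

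BiP and its partners were the role with the most calls, with 8 of 9 genes higher, 0 lower and a median log2 fold change of 0.31. The counts of this and the other roles are to be read beside the 21.1% of all genes called higher and the 20.7% called lower. BiP (*Hspa5*), the HSP70 chaperone of the ER and the classical readout of the UPR, was measured at 22548 to 26602 in CTL tumors with a median of 23367, and 25999 to 36156 in knockdown tumors with a median of 31141 (log2 fold change 0.37, SE 0.0814, adjusted p = 0.00211). In 5 of 6 knockdown tumors it was above the highest CTL tumor, and knockdown tumor 1, at 25999, was not. The difference was 1.30-fold. *Hyou1* (GRP170), which exchanges the nucleotide of BiP, was at 4644 to 5182 in CTL tumors with a median of 4829.6, and 5211 to 6718 in knockdown tumors with a median of 6009.9 (log2 fold change 0.31, SE 0.0643, adjusted p = 0.00158). *Dnajb11* (ERdj3), a co-chaperone that hands unfolded proteins to BiP, was at 2194 to 2697 in CTL tumors with a median of 2439.9, and 2718 to 3350.3 in knockdown tumors with a median of 2982 (log2 fold change 0.30, SE 0.0644, adjusted p = 0.00188). Both genes were separated between the groups, with all 6 knockdown tumors above all CTL tumors (exact two-sided permutation test, p = 0.00216 each, the smallest that 6 against 6 tumors can give).

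The largest changes of this role were in *Dnajc3* and *Dnajc10*. *Dnajc3* (P58IPK), a co-chaperone of BiP that also restrains PERK, was at 3657 to 4776 in CTL tumors with a median of 4039, and 5905 to 7700.1 in knockdown tumors with a median of 6407 (log2 fold change 0.67, SE 0.0774, adjusted p = 1.15e-05). *Dnajc10* (ERdj5), which joins a J domain to disulfide reduction and serves degradation, was at 10128 to 12349.9 in CTL tumors with a median of 11068, and 15487 to 18111 in knockdown tumors with a median of 16019 (log2 fold change 0.58, SE 0.0652, adjusted p = 9.81e-06). Both were separated between the groups, and *Dnajc10* did not share the low level of knockdown tumor 1, which at 17632 was next to the highest. *Dnajc3* lies on chromosome 14 (chr14:118937976-118981697, plus strand), where the median gene was 0.39 higher on the log2 scale in knockdown tumors. Among 11 tested genes within 2 Mb on either side of it, the median log2 fold change was 0.44, and 8 were called higher and 0 lower. With the median of each chromosome removed, the log2 fold change of *Dnajc3* was 0.29 (adjusted p = 0.00324) in place of 0.67.

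Of the smaller partners of BiP, 3 more were called higher. *Sdf2l1*, a component of the BiP and ERdj3 complexes, was at 999 to 1586 in CTL tumors with a median of 1225, and 1261 to 2213 in knockdown tumors with a median of 1884 (log2 fold change 0.52, SE 0.14, adjusted p = 0.00769). The groups overlapped, with 4 of 6 knockdown tumors above the highest CTL tumor. *Creld2*, an ER stress-inducible protein with isomerase activity, had a log2 fold change of 0.25 (adjusted p = 0.0375), and *Manf*, a secreted and ER-resident factor that binds BiP, had 0.27 (adjusted p = 0.0437). These 2 calls stood near the threshold: *Creld2* lost it when any of 8 tumors was left out, with a highest adjusted p of 0.0869, and so did *Manf*, with a highest adjusted p of 0.0995. edgeR on recovered reads gave an adjusted p of 0.0372 for *Creld2* and 0.0515 for *Manf*. *Dnajb9* (ERdj4), a target of spliced XBP1 that opposes IRE1, was the member of this role that was not called, at 1669 to 2089 in CTL tumors with a median of 1746, and 1359 to 1919.8 in knockdown tumors with a median of 1607 (log2 fold change -0.16, SE 0.0847, adjusted p = 0.152), and its estimate was on the other side of 0 from the rest.

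**Figure D2:**
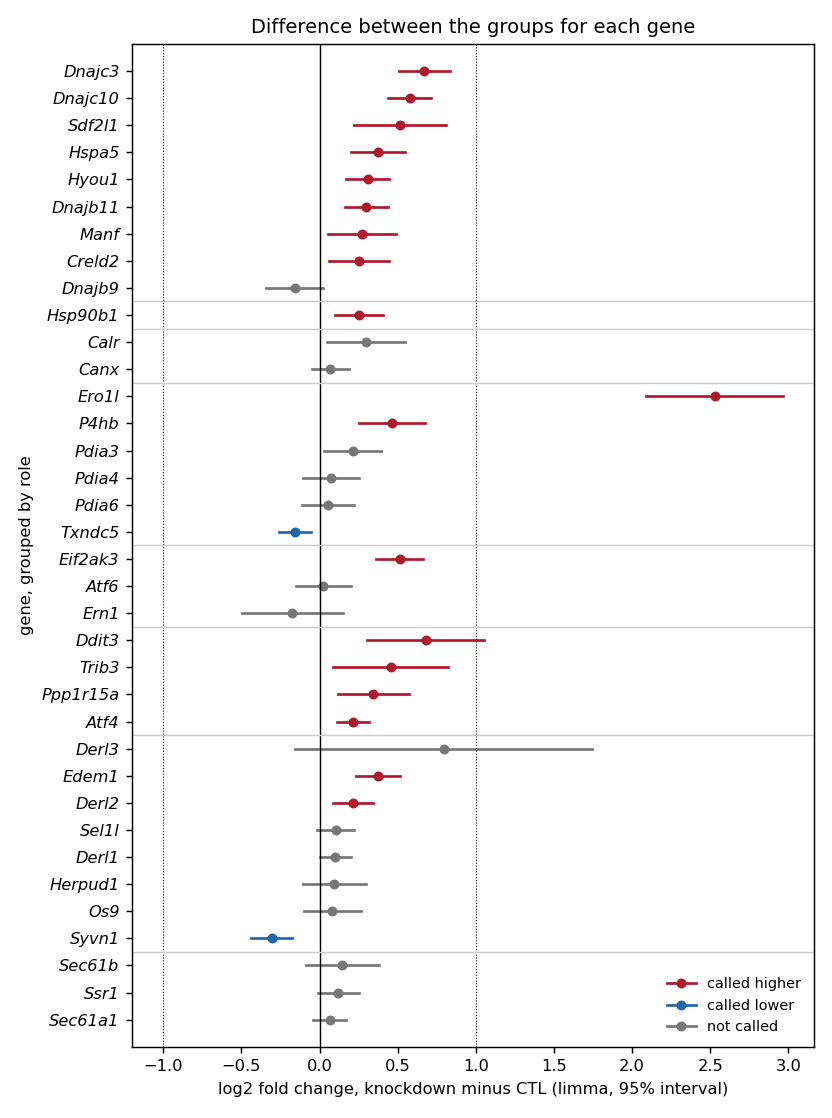
Log2 fold change of knockdown over CTL (points) with the 95% interval from limma (lines) for the 36 genes, grouped by role, and dotted lines at -1 and 1. *Ero1l* at 2.53 stands alone to the right of 1, and the other called genes lie between -0.31 and 0.68.

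GRP94 (*Hsp90b1*), the HSP90 of the ER, was at 25277 to 28251 in CTL tumors with a median of 26182, and 27848 to 36249 in knockdown tumors with a median of 31449.9 (log2 fold change 0.25, SE 0.0717, adjusted p = 0.0111), a 1.19-fold difference, with 5 of 6 knockdown tumors above all CTL tumors. The lectin chaperones, which hold glycoproteins while they fold, were called in 0 of 2 cases by limma and 0 by edgeR, with 1 of 2 at an unadjusted p under 0.05. Calreticulin (*Calr*) was at 24192 to 33639.9 in CTL tumors with a median of 27546, and 26866 to 41755 in knockdown tumors with a median of 36373 (log2 fold change 0.30, SE 0.12, adjusted p = 0.0524), and 4 of 6 knockdown tumors were above the highest CTL tumor. Calnexin (*Canx*), its membrane-bound counterpart, had a log2 fold change of 0.07 (95% interval -0.05 to 0.19, adjusted p = 0.359). *Calr* lies on chromosome 8, whose median gene was 0.19 lower on the log2 scale in knockdown tumors, and with chromosome medians removed its log2 fold change was 0.50 (adjusted p = 0.00259). *Calr* also passed the threshold when CTL tumor 3, knockdown tumor 1 or knockdown tumor 4 was left out.

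Promoters of ER chaperone genes are known for a shared control element, and its letters were looked up in the members. The ER stress element (ERSE) is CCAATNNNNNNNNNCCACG, through which ATF6 with NF-Y and also XBP1 can act, and ERSE-II is ATTGGNCCACG. RefSeq promoters on GRCm38.p6, from 250 bases before to 50 after each annotated start, were searched on both strands. They were found for 30 of 36 members, and *Atf6*, *Hyou1*, *Manf*, *Ero1l*, *Derl1* and *Sec61a1* had no entry. Exact ERSE letters were in 9 of these 30 members (30%) and in 37 of all 27025 genes (0.137%). ERSE-II letters were in 2 of 30 members and in 12 of all genes (0.0444%). These elements are known from promoters of such genes, so their high share among the members is no finding of these data. The 2 motifs share the letters CCACG, and no member held both. The sites are shown so that they can be read beside the values of their genes, with the motif letters in capitals, 5 flanking bases in lower case, and each read 5′ to 3′ on the strand that carries the motif:
*Hspa5* (chr2:34772020-34772048, plus): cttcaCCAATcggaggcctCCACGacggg
*Hsp90b1*, outer site (chr10:86705633-86705661, minus): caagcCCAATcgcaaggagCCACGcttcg
*Hsp90b1*, inner site (chr10:86705528-86705556, plus): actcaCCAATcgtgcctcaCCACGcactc
*Calr* (chr8:84847070-84847098, plus): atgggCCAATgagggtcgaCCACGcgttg
*Canx* (chr11:50325795-50325823, minus): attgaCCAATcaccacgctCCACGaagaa
*Pdia6* (chr12:17266486-17266514, plus): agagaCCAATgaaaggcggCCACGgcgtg
*Dnajc3* (chr14:118937822-118937850, plus): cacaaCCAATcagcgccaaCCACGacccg
*Creld2* (chr15:88819515-88819543, minus): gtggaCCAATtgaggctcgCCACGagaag
*Syvn1* (chr19:6046527-6046555, plus): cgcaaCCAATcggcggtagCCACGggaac
*Derl3* (chr10:75893237-75893265, minus): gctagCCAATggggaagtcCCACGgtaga
*Herpud1*, ERSE-II (chr8:94386372-94386392, plus): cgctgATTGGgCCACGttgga
*Dnajb11*, ERSE-II (chr16:22857847-22857867, plus): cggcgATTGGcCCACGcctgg

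The sites stood on the gene's own strand in *Hspa5*, the outer site of *Hsp90b1*, *Canx*, *Pdia6*, *Dnajc3*, *Syvn1*, *Herpud1* and *Dnajb11*, and on the opposite strand in the inner site of *Hsp90b1*, *Calr*, *Creld2* and *Derl3*. The motif of *Hspa5* ended 46 bases before the RefSeq start and lies in an exon of a longer GENCODE transcript of the gene, and that of *Dnajb11* lies after the RefSeq start. Of the 9 members with an ERSE, 4 were called higher, 1 (*Syvn1*) lower and 4 not called, with a median log2 fold change of 0.25. Over all genes 21.1% were called higher and 20.7% lower. All of the 9 except *Syvn1* had a positive log2 fold change. With chromosome medians removed *Syvn1* was at 0.051, *Calr* at 0.50 and *Dnajc3* at 0.29. Of the 19 members whose promoter held neither motif, 10 were called higher, 1 lower and 8 not called, with a median of 0.21. A match gives letters in this window and says nothing of binding in these tumors.

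The disulfide isomerases and their oxidase were split, with 2 of 6 higher and 1 lower, where 21.1% of all genes were called higher and 20.7% lower. *Ero1l*, the ER oxidase that passes electrons from protein disulfide isomerase to oxygen and is known as both a UPR and a hypoxia-inducible gene, had the largest difference of all members. *Ero1l* (ENSMUSG00000021831, chr14:45283087-45318771, minus strand) was at 2289 to 4493 in CTL tumors with a median of 3368, and 10837 to 27327 in knockdown tumors with a median of 21704 (log2 fold change 2.53, SE 0.20, adjusted p = 6.13e-07). All 6 knockdown tumors, down to tumor 1 as the lowest, lay above all CTL tumors, and the difference was 5.77-fold. In no alternative did its log2 fold change drop below 2.15. That lowest value came with chromosome medians removed, since *Ero1l* too lies on chromosome 14. Its 23 tested neighbours within 2 Mb had a median log2 fold change of 0.40, and 10 were called higher and 2 lower.

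Protein disulfide isomerase itself (*P4hb*), the abundant partner that ERO1 reoxidizes, was at 29169 to 34965 in CTL tumors with a median of 31134, and 34226 to 52083 in knockdown tumors with a median of 46456 (log2 fold change 0.46, SE 0.0975, adjusted p = 0.00160). In 5 of 6 knockdown tumors it was above the highest CTL tumor, a 1.38-fold difference. *Txndc5* (ERp46), a disulfide isomerase of the same family, fell, at 7763 to 8769.7 in CTL tumors with a median of 8264, and 6823 to 7637 in knockdown tumors with a median of 7454 (log2 fold change -0.16, SE 0.0474, adjusted p = 0.0151). This was a small difference with separated groups, all 6 knockdown tumors being below the lowest CTL tumor. *Pdia3* (ERp57), which works with the lectin chaperones, was at 25025 to 29459.8 in CTL tumors with a median of 26698, and 26747 to 37137 in knockdown tumors with a median of 32441 and was not called (log2 fold change 0.21, SE 0.0862, adjusted p = 0.0634). It was called when knockdown tumor 1 or 4, its lowest knockdown tumors, was left out. *Pdia4* and *Pdia6*, further isomerases of the BiP complex, had log2 fold changes of 0.07 (95% interval -0.10 to 0.25) and 0.05 (95% interval -0.11 to 0.22) and were not called.

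Of the 3 sensors, 1 was called, where 21.1% of all genes were called higher and 20.7% lower. PERK (*Eif2ak3*), the kinase that phosphorylates the initiation factor eIF2α, rose and was at 946 to 1140.1 in CTL tumors with a median of 1019, and 1332 to 1644 in knockdown tumors with a median of 1446 (log2 fold change 0.51, SE 0.0702, adjusted p = 5.25e-05), with all 6 knockdown tumors above the CTL tumors. IRE1 (*Ern1*) was at 1309 to 2574 in CTL tumors with a median of 1955, and 1431 to 2117 in knockdown tumors with a median of 1622 (log2 fold change -0.17, SE 0.15, adjusted p = 0.384), with a wide spread among CTL tumors and all 6 knockdown tumors inside the CTL range. ATF6 (*Atf6*) was at 1779 to 2521 in CTL tumors with a median of 2159, and 1981 to 2391 in knockdown tumors with a median of 2123, with full overlap. The difference was 0.02 on the log2 scale (95% interval -0.15 to 0.20), and its sign changed after rescaling to the same total. *Xbp1*, the transcript that IRE1 splices, is named here outside the rule for naming related genes. It was at 6809 to 8665 in CTL tumors with a median of 7856, and 7269 to 8745 in knockdown tumors with a median of 8123 (log2 fold change 0.04, SE 0.0714, adjusted p = 0.699), and its spliced share cannot be read from gene-level counts.

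All 4 genes grouped here as PERK branch output were called higher, with a median log2 fold change of 0.40. The part of PERK in their change was not tested. Of the other listed eIF2α kinases, named outside the rule, *Eif2ak2* was called higher (log2 fold change 0.38, adjusted p = 0.00102). *Eif2ak1* and *Eif2ak4* were not called. *Atf4*, the transcription factor whose translation PERK favours, was at 3779 to 4244 in CTL tumors with a median of 3967, and 4388 to 5063 in knockdown tumors with a median of 4601 (log2 fold change 0.21, SE 0.0477, adjusted p = 0.00249), a 1.16-fold difference with separated groups. *Ddit3* (CHOP), a transcription factor linked to cell death under stress, was at 269 to 439 in CTL tumors with a median of 356, and 352 to 827 in knockdown tumors with a median of 583 (log2 fold change 0.68, SE 0.17, adjusted p = 0.00618). In 5 of 6 knockdown tumors it was above the highest CTL tumor, and tumor 1, at 352, was inside the CTL range. *Ppp1r15a* (GADD34), which restores translation, was at 481 to 659 in CTL tumors with a median of 515, and 584 to 864 in knockdown tumors with a median of 664 (log2 fold change 0.34, SE 0.11, adjusted p = 0.0178), and 4 of 6 knockdown tumors were above all CTL tumors. *Trib3*, a pseudokinase induced by CHOP, was at 215 to 391 in CTL tumors with a median of 259, and 274 to 528 in knockdown tumors with a median of 399.6 (log2 fold change 0.45, SE 0.17, adjusted p = 0.0461). The *Trib3* call was at the threshold and was lost when any of 9 tumors was left out (highest adjusted p 0.106), under both rescalings, without a variance trend and with edgeR (adjusted p = 0.0549).

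**Figure D3:**
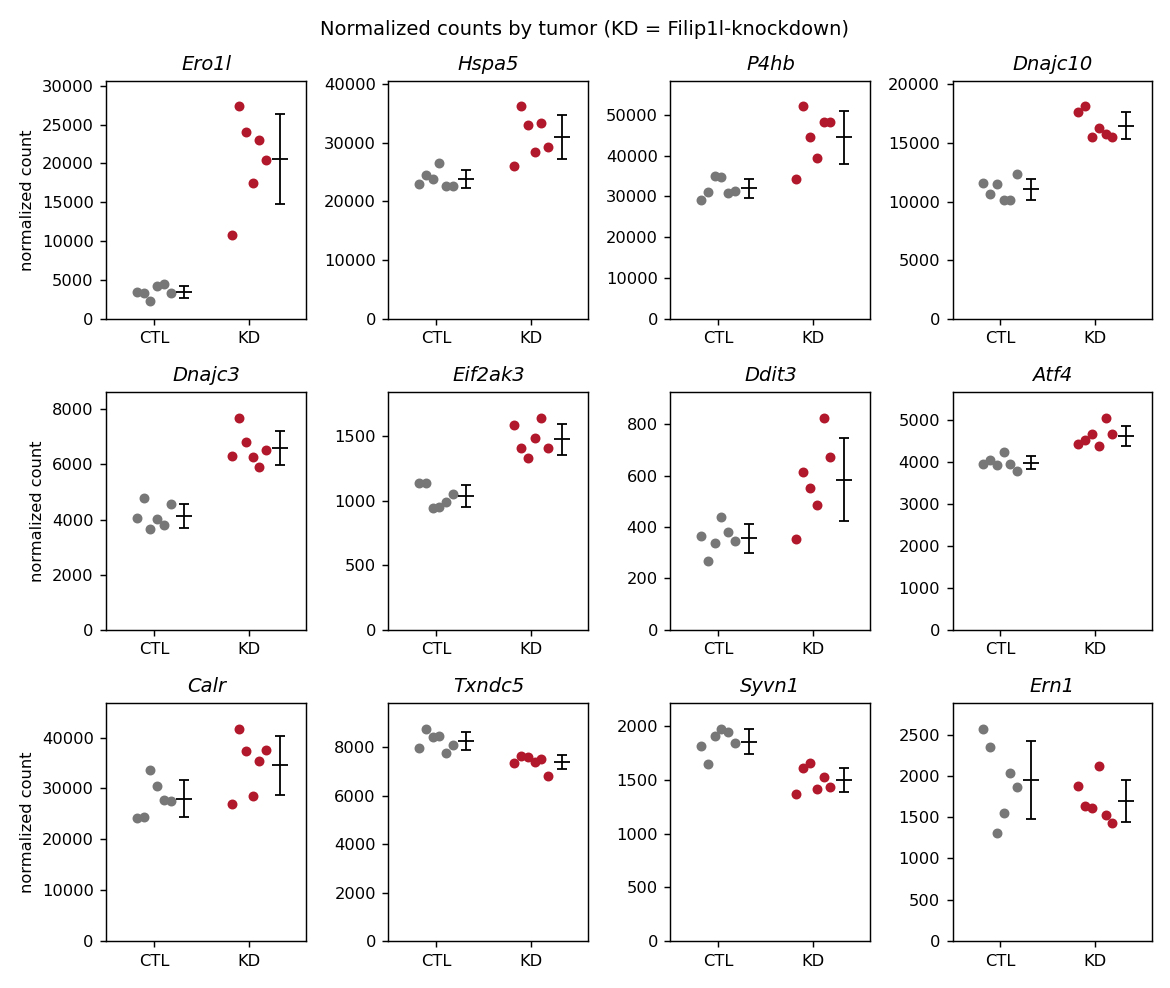
Normalized counts of 12 of the genes in each tumor (points, CTL grey and knockdown red), with the mean and SD beside each group, on linear axes from 0. *Ero1l*, *Dnajc10*, *Dnajc3*, *Eif2ak3* and *Atf4* have no overlap between groups, while in *Hspa5*, *P4hb* and *Ddit3* knockdown tumor 1 (the first red point) falls among or near the CTL tumors.

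Of the 8 genes of ER-associated degradation 2 rose, 1 fell and 5 were not called. Over all genes 21.1% were called higher and 20.7% lower, so the share of this role called higher was near that of all genes. *Edem1*, a lectin that draws misfolded glycoproteins into degradation, was at 2586 to 3026 in CTL tumors with a median of 2781, and 3138 to 4094 in knockdown tumors with a median of 3597 (log2 fold change 0.38, SE 0.0665, adjusted p = 0.000444), with separated groups. *Derl2*, a membrane protein of the export channel, was at 1229 to 1500.2 in CTL tumors with a median of 1366, and 1448 to 1708 in knockdown tumors with a median of 1566 (log2 fold change 0.21, SE 0.0595, adjusted p = 0.0108). *Syvn1* (HRD1), the ubiquitin ligase at the centre of the pathway, was at 1651 to 1977 in CTL tumors with a median of 1876, and 1372 to 1657 in knockdown tumors with a median of 1478 (log2 fold change -0.31, SE 0.0623, adjusted p = 0.00124). In 5 of 6 knockdown tumors it was below the lowest CTL tumor. *Syvn1* lies on chromosome 19 (chr19:6046576-6053712, plus strand), whose median gene was 0.35 lower on the log2 scale in knockdown tumors. Of its 140 tested neighbours within 2 Mb, 94 were called lower and 8 higher, with a median of -0.36. With chromosome medians removed the log2 fold change of *Syvn1* was 0.051 (adjusted p = 0.537), against -0.31 before, so *Syvn1* did not fall relative to its chromosome.

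The other degradation genes were not called. *Sel1l*, the adaptor of HRD1, had a log2 fold change of 0.10 (95% interval -0.01 to 0.22), *Derl1* 0.10 (0.00 to 0.20), and *Os9*, a lectin that recognizes trimmed glycans, 0.08 (-0.10 to 0.26). *Herpud1*, a stress-induced scaffold of the ligase, had 0.10 (-0.11 to 0.30). *Herpud1* is on chromosome 8, and with chromosome medians removed it was at 0.29 (adjusted p = 0.0142). *Derl1* is on chromosome 15, whose median gene was at -0.04, and with chromosome medians removed it was at 0.16 (adjusted p = 0.0124). *Derl3* was near the floor of the data, at 2.84 to 22.9 in CTL tumors with a median of 14.5, and 10.4 to 32.9 in knockdown tumors with a median of 22.6 normalized counts, and its log2 fold change of 0.79 had a 95% interval of -0.16 to 1.74. Of the 3 genes of translocation into the ER 0 were called by limma and 0 by edgeR, with 0 at an unadjusted p under 0.05. *Sec61a1*, the channel, had 0.06 (-0.04 to 0.17), *Sec61b*, its beta subunit, 0.14 (-0.09 to 0.38), and *Ssr1*, a subunit of the translocon-associated complex, 0.12 (-0.01 to 0.25).

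Levels can be compared roughly between genes after division by the annotated exon length, which joins the exons of all annotated transcripts of a gene. The transcripts present in these tumors may be shorter, so the order of genes is approximate. On the scale of normalized counts per kilobase of exon, the CTL means were highest for *P4hb* (11181), *Calr* (9707), *Pdia3* (8653), *Hsp90b1* (6574) and *Hspa5* (5638), and lowest for *Trib3* (138) and *Derl3* (6.67). The knockdown means of the leading 5 were 15547, 12006, 10075, 7866 and 7335 in the same order. *Ero1l* went from 659.7 to 3881 per kilobase, above *Canx* (3269) and *Pdia4* (3344) in the same tumors. The sensors were far down this scale, with CTL means of 239 for *Ern1*, 229 for *Atf6* and 172 for *Eif2ak3*.

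Tumors of the knockdown group were not equally high. Knockdown tumor 2 had 27 of 36 members above the highest CTL tumor, tumor 5 had 26, tumor 6 had 24, tumor 3 had 23 and tumor 4 had 18, while tumor 1 had 11. The median deviation of the 36 members from the CTL mean was 0.39 on the log2 scale in tumor 2 and 0.01 in tumor 1, where the median of all genes was at most 0.0101 from 0 in every tumor. Without knockdown tumor 1, 20 members were called higher and 2 lower. Calls over all genes rose too, with 3508 of 15687 genes called higher in that setting against 3314 with all tumors. Knockdown tumor 1 also had the highest *Filip1l* of its group, the highest summed macrophage markers of the 12 tumors (61378, against 21650 to 33461 in the others) and the lowest hypoxia genes of its group (120709, inside the CTL range). Its summed simple epithelium markers were the lowest of the group (188323, against 259325 to 352179), as were its goblet-like markers (3362, inside the CTL range), and its fibroblast markers were the highest (252720, against 74885 to 157962). The part of these differences in its lower chaperone levels was not tested.

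After the mean of each group was removed, many of the members varied together from tumor to tumor, more so in the knockdown group. The mean pairwise Pearson correlation of the 36 members over the 12 tumors was 0.26, against 0.000419 for all pairs of the 15687 genes and 0.03 for pairs of the 5792 genes whose mean reached 1000 normalized counts. It was 0.11 within the 6 CTL tumors, with 60% of pairs above 0. Within the 6 knockdown tumors, which include the low tumor 1, it was 0.34, with 74.9% of pairs above 0. Values of one tumor share a library and its scaling, so these are descriptions without a test. By role the mean was 0.71 among the sensors, 0.68 among the translocation genes, 0.59 among the isomerases and oxidase, 0.44 among BiP and its partners, 0.36 in the PERK branch output and 0.20 in degradation. The highest pair was *Calr* with *Sdf2l1* (0.96). The sensors ran opposite to most other members, with mean correlations to the other members of -0.29 for *Ern1*, -0.31 for *Atf6* and -0.24 for *Eif2ak3*, and the lowest pair was *Atf6* with *Herpud1* (-0.90). *Dnajc10* stood apart, with a mean correlation of -0.07, as did *Ppp1r15a* with -0.11.

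**Figure D4:**
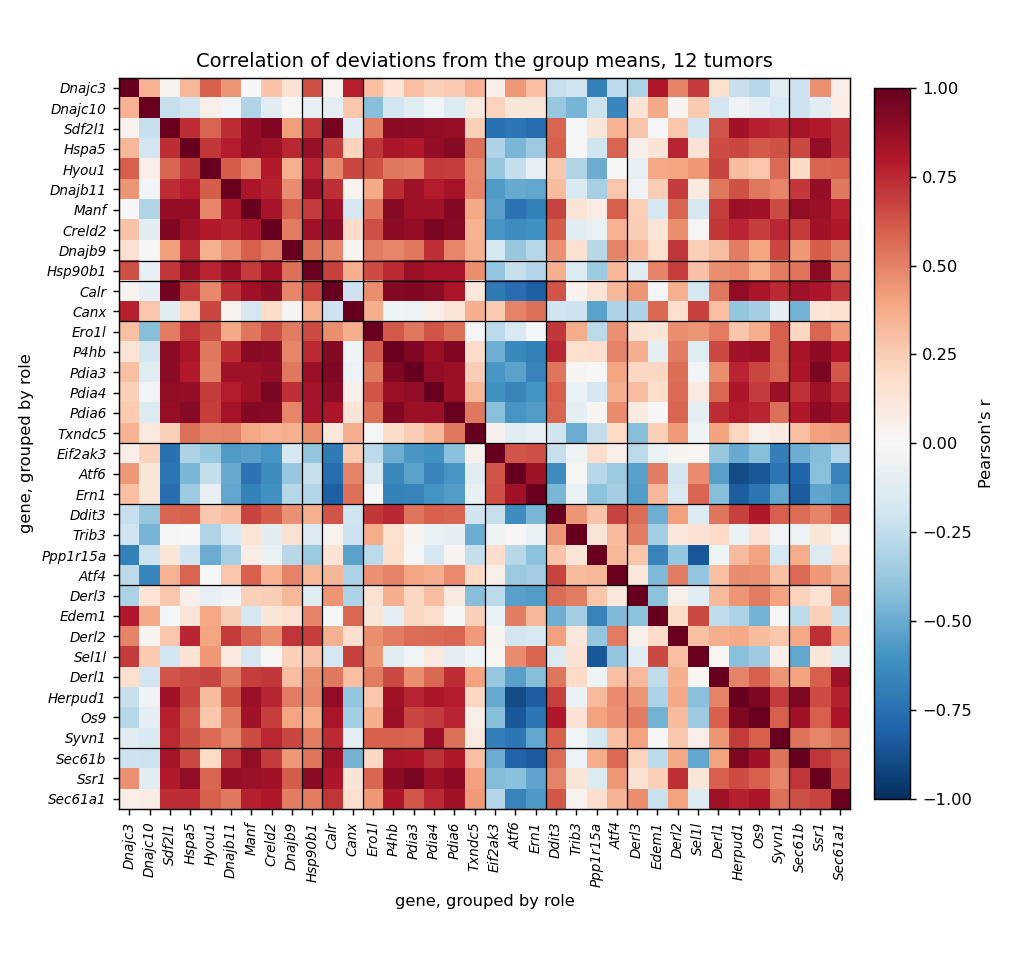
Pearson correlation between the 36 genes over 12 tumors after removal of each group's mean, with genes ordered by role and colours from -1 (blue) to 1 (red). Most chaperones, isomerases and translocation genes form red blocks with each other, and the 3 sensors form blue bands against them.

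Genes near the members in the pathway were read from 7 further lists with 183 measured genes, of which 55 rose, 30 fell and 98 were not called. Over all genes 21.1% were called higher and 20.7% lower, and the shares of each list are given for comparison with these. Of 32 further chaperones and co-chaperones 6 rose (18.8%) and 11 fell (34.4%), with a median log2 fold change of -0.03. *Fkbp11*, a prolyl isomerase of secretory cells, fell (207 ± 8.85 in CTL tumors and 77.2 ± 35.4 in knockdown tumors, SD, n = 6 each, log2 fold change -1.51, SE 0.21, adjusted p = 6.22e-05), and *Rcn1*, a calcium-binding protein of the ER, fell too (2821 ± 341 in CTL tumors and 1445 ± 331 in knockdown tumors, log2 fold change -0.99, SE 0.13, adjusted p = 3.31e-05). Outside the rule for naming, the collagen chaperones *Serpinh1* (HSP47) and *Fkbp10* also fell (log2 fold changes -0.58 and -0.69). Of the list's other *Fkbp* and *Ppi* genes, *Fkbp7* and *Fkbp14* fell (-0.47 and -0.33) and *Ppic* rose (0.28). *Ppib*, *Fkbp2* and *Fkbp9* were not called. In the same tumors the fibroblast list had 2 of 7 genes lower (28.6%, against 20.7% of all genes), 0 higher and 5 not called. The lower genes were *Col1a1* (-0.76) and *Col1a2* (-0.97). Summed levels of the list were 160012 to 260347 in CTL and 74885 to 252720 in knockdown tumors. The part of stromal cells in the fall of these chaperones was not tested.

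Of 20 further disulfide isomerases and oxidases 6 rose (30%) and 4 fell (20%, median 0.08). *Agr2*, an isomerase of mucus-secreting epithelium, had the largest difference of the pathway lists, at 25.6 to 272 in CTL tumors with a median of 86.9, and 1342 to 3321 in knockdown tumors with a median of 2601 (log2 fold change 4.75, SE 0.42, adjusted p = 1.25e-06), with separated groups. *Qsox2*, a sulfhydryl oxidase, rose as well (595 ± 93.4 in CTL tumors and 1040.0 ± 65.5 in knockdown tumors, log2 fold change 0.82, SE 0.0952, adjusted p = 1.24e-05). *Agr2* also belongs to the goblet-like epithelial markers, of which 4 of 6 were higher and 0 lower, with summed levels of 843 to 6103 in CTL and 3362 to 23000.4 in knockdown tumors. *Agr2* itself is 1 of these 4 higher genes. Of 5 simple epithelium markers 4 were higher and 0 lower, with sums of 135208 to 175847 and 188323 to 352179. Both counts are to be read beside the 21.1% of all genes called higher and the 20.7% called lower. The part of the epithelial markers in the member values was not tested.

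Of 19 genes of glycoprotein folding and glycosylation 9 rose (47.4%) and 4 fell (21.1%, median 0.18). *Dad1*, a subunit of oligosaccharyltransferase on chromosome 14, rose (log2 fold change 0.81, SE 0.10, adjusted p = 2.35e-05), and *Ganab*, the catalytic subunit of glucosidase II on chromosome 19, fell (log2 fold change -0.46, SE 0.0479, adjusted p = 4.9e-06). Of 33 further degradation genes 8 rose (24.2%) and 4 fell (12.1%, median 0.04), led by *Ubac2* (log2 fold change 0.70, SE 0.0627, adjusted p = 1.31e-06) and *Selenok* (log2 fold change 0.48, SE 0.12, adjusted p = 0.00652), both on chromosome 14. Of 20 further translocation genes 5 rose (25%) and 0 fell (median 0.09), led by the signal peptidase subunits *Sec11c* (log2 fold change 0.75, SE 0.11, adjusted p = 9.43e-05) and *Spcs1* (log2 fold change 0.37, SE 0.0618, adjusted p = 0.000273). *Spcs1* is on chromosome 14 too, and with chromosome medians removed it was at -0.011, while *Ganab* at -0.10 and *Selenok* at 0.10 were no longer called. *Dad1* at 0.43 and *Ubac2* at 0.32 were smaller but still called.

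Of 18 further sensors and transcription factors 5 rose (27.8%) and 3 fell (16.7%, median 0.07). *Creb3l3*, an ATF6-like factor, rose from a low level (22.4 to 80.7 in CTL tumors with a median of 31.0, and 70.8 to 157 in knockdown tumors with a median of 102, log2 fold change 1.46, SE 0.30, adjusted p = 0.00150), and *Mbtps1*, the protease that makes the first cut in ATF6, fell (5996 ± 394 in CTL tumors and 4054 ± 269 in knockdown tumors, log2 fold change -0.56, SE 0.0592, adjusted p = 5.04e-06). *Mbtps1* is on chromosome 8, and with chromosome medians removed it was at -0.37 and still called. Of 41 targets of ATF4 and CHOP 16 rose (39.0%) and 4 fell (9.76%, median 0.13). *Atf3*, a stress transcription factor, was at 293 to 522 in CTL tumors with a median of 321, and 653 to 1119 in knockdown tumors with a median of 767 (log2 fold change 1.19, SE 0.16, adjusted p = 3.45e-05). *Stc2*, a secreted glycoprotein of the ER stress response, was at 172 to 350.0 in CTL tumors with a median of 246, and 569 to 954 in knockdown tumors with a median of 719 (log2 fold change 1.57, SE 0.17, adjusted p = 6.13e-06). Both were separated between the groups.

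**Figure D5:**
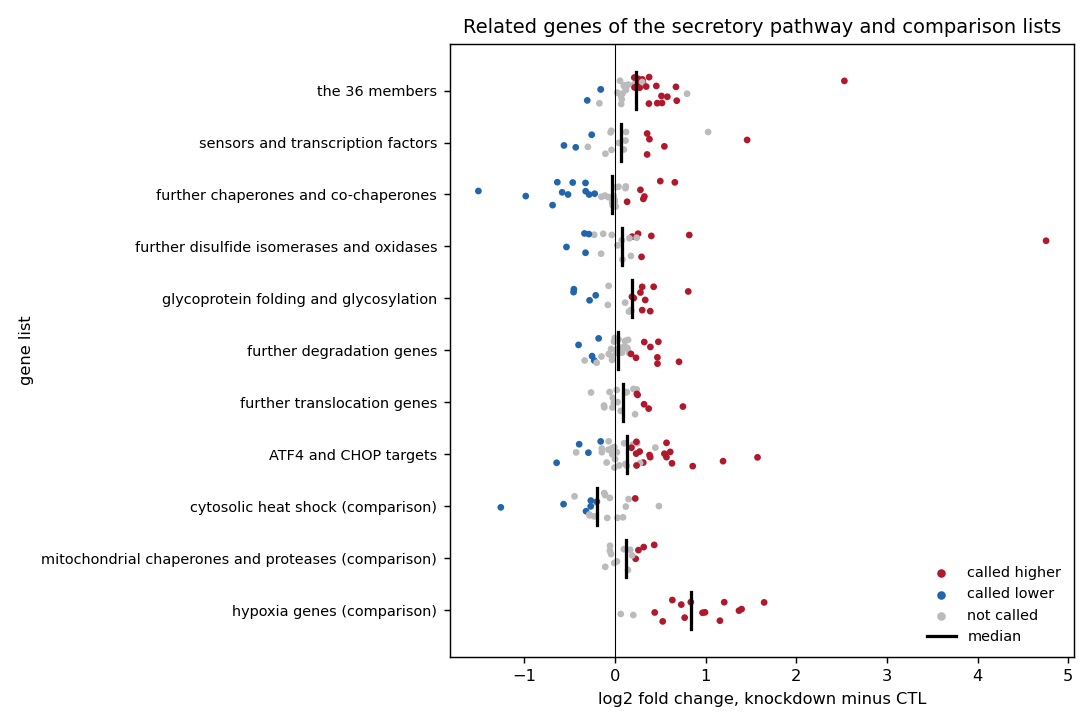
Log2 fold changes of the 36 members, of 7 related lists and of 3 comparison lists (points, red called higher, blue called lower, grey not called) with each list's median as a black line. The members' median (0.23) lies right of those of the pathway lists (-0.03 to 0.18), and the hypoxia genes (0.84) lie further right.

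The comparison lists too are set beside the 21.1% of all genes called higher and the 20.7% called lower. Hypoxia-inducible genes were higher in 13 of 15 cases and lower in 0, with a median log2 fold change of 0.84, and their summed level was 97590 to 122982 in CTL and 120709 to 218448 in knockdown tumors. *Ndrg1* (log2 fold change 1.64, SE 0.21, adjusted p = 2.8e-05), the oxygen sensor *Egln3* (log2 fold change 1.20, SE 0.17, adjusted p = 5.51e-05), carbonic anhydrase *Car9* (log2 fold change 1.37, SE 0.21, adjusted p = 0.000121), adrenomedullin *Adm* (log2 fold change 1.40, SE 0.30, adjusted p = 0.00177) and *Pfkfb3*, a regulator of glycolysis (log2 fold change 1.16, SE 0.14, adjusted p = 1.99e-05), rose by over 1. In knockdown tumor 1 the hypoxia sum lay inside the CTL range, while *Ero1l* was at 10837, above the highest CTL tumor at 4493, and in the other 5 knockdown tumors both were above the CTL range. The part of the hypoxia genes in the change of *Ero1l* was not tested. The cytosolic heat shock list had 1 of 21 genes higher (4.76%) and 6 lower (28.6%), with a median of -0.20. Its lower share was not far above that of all genes, and its higher share was below. It was led by *Hspb1* (4369.7 ± 496 in CTL tumors and 1914 ± 644 in knockdown tumors, log2 fold change -1.26, SE 0.20, adjusted p = 0.000163) and *Stip1* (log2 fold change -0.57, SE 0.0653, adjusted p = 1.09e-05). *Stip1* is on chromosome 19, and with chromosome medians removed it was at -0.21 and still called. Mitochondrial chaperones and proteases had 4 of 14 genes higher (28.6%) and 0 lower (median 0.12), led by *Afg3l2* (log2 fold change 0.43, SE 0.0627, adjusted p = 8.45e-05) and *Lonp1* (log2 fold change 0.32, SE 0.0731, adjusted p = 0.00320).

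Markers of several other cell types were higher in knockdown tumors, which are to be read beside the 21.1% of all genes called higher. Skeletal muscle markers were higher in 9 of 11 cases (summed level 2780 to 14822 in CTL and 5851 to 107049 in knockdown tumors) and neutrophil markers in 6 of 6 (305 to 380 and 767 to 1223). Endothelial markers were higher in 4 of 4 (1954 to 2471 and 2495 to 3948), and adipocyte markers in 2 of 3 (188 to 389 and 398 to 746). Nearer to the share of all genes were macrophage markers, with 1 of 7 higher (14.3%) and overlapping sums (24105 to 32563 and 21650 to 61378), and markers of B and plasma cells, which are rich in ER chaperones, with 2 of 7 (28.6%, sums of 22810 to 27677 and 26427 to 29848, most of it *Sdc1*). None of these lists had a marker called lower. All 7 markers of B and plasma cells had a positive log2 fold change, with a median of 0.62 and a lowest value of 0.14. The 2 called higher were past a log2 fold change of 1. Their summed level, being mostly *Sdc1*, says little of the other markers of this list. *Ms4a1*, *Cd79a* and *Tnfrsf17*, defining markers of B and plasma cells, were not among the genes analysed here. With the 3 knockdown tumors richest in muscle markers (3, 4 and 1) left out, a choice made after seeing the data, 21 members were called higher and 2 lower, and *Calr*, *Pdia3* and *Ssr1* were among them. Over all 15687 genes, 3317 were called higher in that setting, against 3314 with all tumors. The omitted tumors include 1 and 4, the 2 with the lowest member values of their group, and without tumor 1 alone 20 members were called higher. The part of these cell types in the member values was not tested.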

How the data were processed

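The authors sequenced paired-end NEBNext Ultra II libraries, not stated to keep the strand, trimmed reads with Trimmomatic 0.36, aligned them with STAR 2.5.2b to an Ensembl mouse genome (mm10 in the submitters' processing notes) and counted unique hits per gene with featureCounts of Subread 1.5.2. The deposited values are a normalized signal, counts divided by the DESeq2 size factor of each tumor. They were whole multiples of 1 step per tumor, so reads were recovered (100% within 0.1 of a whole number), and edgeR 4.0.16 on them called 6626 genes against 6566. Symbols, positions and exon lengths came from GENCODE vM21 (GRCm38; 99.8% of identifiers found). In exons of *Hsp90b1*, *Ddit3*, *Derl2*, *Manf*, *Txndc5*, *Eif2ak3*, *Sec61a1* and *Syvn1*, from 91 to 549 bases are shared with another annotated gene, and reads there cannot be told apart without strand.

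log2(normalized count + 1) was fitted over all genes with limma 3.58.1 in R 4.3.3 (variance trend, Benjamini-Hochberg). A filter at a mean of 5 removed 0 genes. The same test on simulated counts recovered 194 of 200 changed genes with 13 false calls. Recovery at differences as small as those of most members was not tested separately. Exact permutation tests used all arrangements of the 12 tumors. The labels name no batch and call the tumors biological replicates. Tumors of equal number were not alike (r -0.269 to 0.0990), so numbers were not paired. Members and lists were chosen with earlier results of these data known. The text names all members and, of related lists, called genes past a log2 fold change of 1, or a list's 2 largest where it has fewer than 2. Alternatives were pseudocounts of 0.5 and 8, other filters and scalings, chromosome medians removed, no trend, replicate number as a block, edgeR and each tumor left out.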

Additional observations from a re-analysis of the deposited data

Results flagged for a closer look

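In 3 of the 72 groups of 6 tumors that the 36 members give, 1 tumor lay far from the other 5 by Dixon's gap test. Chance flags about 1 in 20 groups. *Dnajb9* was at 2089 normalized counts in CTL tumor 4, where the next highest CTL tumor had 1797. *Sel1l* was at 3569 in CTL tumor 3, where the next lowest had 4046. *Txndc5* was at 6823 in knockdown tumor 6, where the next lowest had 7343. Without those tumors none of the 3 genes changed its call.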

How the results depend on the processing

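With all 12 tumors, 10 alternatives were run. Members called higher numbered 15 with limma without a trend, 16 with edgeR on recovered reads and after rescaling to the 75th percentile, 17 with replicate number as a block and 21 with chromosome medians removed, against 18, and leaving out 1 tumor gave 15 to 20. Members called lower were 2 throughout, except 3 after rescaling to the same total and 1 with chromosome medians removed, and 1 member was past both thresholds in every setting. Directions turned for *Syvn1* (0.051) and *Spcs1* (-0.011) with chromosome medians removed, which the removal itself causes, and for *Atf6*, which was near 0 throughout: -0.0179 after rescaling to the same total, -0.020 without the muscle-rich tumors and -0.025 to 0.076 with 1 tumor left out. Of the 20 called members 16 kept their call in all 10 alternatives and all 12 omissions, and the others were *Creld2*, *Manf*, *Trib3* and *Syvn1*. The replicate block lost the call of *Manf* and changed no other member's call. Depth limited *Derl3* alone, at 3 to 26 reads in CTL tumors and 10 to 38 in knockdown tumors.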

Other observations

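The ERSE letters were also found in 8 tested genes that are not members, *Acacb*, *Acnat2*, *Adcy3*, *Alg12*, *Hnrnpa3*, *Pan2*, *Spats2l* and *Zfp57*. Of these 2 were called higher and 1 lower, with a median log2 fold change of -0.02, where the 9 members with the letters had a median of 0.25. The 6 tested genes outside the members with ERSE-II letters had 2 called higher and 2 lower and a median of -0.03. These genes are named because they carry the letters, and their values were seen with those of all genes.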
